A study of Mus musculus with 7 samples.

Results

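Ubiquitin ligases of the Rnf, Trim and F-box families (Fbxo, Fbxl, Fbxw) and deubiquitinases of the Usp family were followed through a pair of m6A peak tables, 1 from mouse muscle and 1 from C2C12 cells. A gene was taken as a member when its symbol starts with Usp, Rnf, Trim, Fbxo, Fbxl or Fbxw followed by a digit. By this rule, 113 of the 6392 genes listed in either table were members. The muscle table listed 78 of them, among 3983 genes, with 99 of its 5412 peaks. The C2C12 list held 81 of them, among 3970 genes, with 104 of its 5433 peaks. Both tables listed 46 of the 113 genes, 32 were listed in muscle alone and 35 in C2C12 alone.

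In m6A MeRIP-Seq, mRNA fragments captured with an antibody against N6-methyladenosine (IP) are sequenced beside the input, and stretches with more IP than input reads are called as peaks. Muscle was taken from the tibialis anterior of C57BL/6 mice at day 2 after injection of cardiotoxin (CTX), which destroys myofibres and starts regeneration. One group was METTL3 cKO (Pax7CreERT2; METTL3 flox/flox) and the other CTL (Pax7CreERT2; METTL3 wt/wt), both with the Cre transgene and both given tamoxifen, with 1 IP and 1 input library per genotype. In the cKO, Mettl3, the m6A methyltransferase, is targeted for deletion in Pax7-expressing cells, that is in muscle stem cells. Cells of the tissue that do not derive from them are not targeted. The number and age of the mice behind each library are not given in the sources used here. C2C12 is a mouse myoblast line, for which 2 IP libraries and 1 input library were made. The labels call the C2C12 IP libraries Knockout and their input Normal, whereas the methods name no knockdown for this experiment. Whether these cells were proliferating or differentiating is not given in the sources used here.

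Each muscle peak carries 1 fold enrichment, the ratio of IP over input, given once for the comparison of the genotypes. The table holds no value per genotype or per library, the number of reads behind a peak is unknown, and the C2C12 list gives positions without values. No test between groups could therefore be made, no value below has a replicate error, and all comparisons are descriptions of these tables. The tables hold no expression values either, so the deletion of Mettl3 was not checked in these libraries. Every muscle peak listed had passed a differential test between the genotypes, so a gene that the muscle table does not list is not shown to lack m6A. Muscle is taken here as whole tissue, in which fewer cells of a type and less RNA per cell cannot be told apart. The paper's methods name muscle cells as the source of the RNA, and its results speak of regenerating muscle. Of the defining markers of cell types, the muscle table listed 2 of 3 for muscle stem cells (Pax7 and Myod1), 2 of 3 for fibroblasts, 1 of 4 for leukocytes, 1 of 3 for endothelium and 0 of 3 for mature myofibres. The C2C12 list, from a myoblast line, held 3 of 3 fibroblast markers and 2 of 3 of muscle stem cells. A listed marker therefore does not show that its cell type is present. The part of each cell type in the peaks below was not tested.

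Ubiquitin is attached to proteins in a chain of reactions, in which an E1 enzyme activates it, an E2 enzyme carries it and an E3 ligase chooses the substrate. Rnf and Trim proteins are mostly RING-type ligases, which bring E2 and substrate together. F-box proteins are the substrate receptors of the SCF ligases, built on the cullin Cul1, and are named Fbxw with WD40 repeats, Fbxl with leucine-rich repeats and Fbxo with other domains. Usp proteins are proteases that take ubiquitin off again. In skeletal muscle, ubiquitin ligases are best known for the breakdown of myofibrillar proteins in atrophy, through Trim63 (MuRF1) and Fbxo32 (atrogin-1). Family membership here rests on symbols, and Usp6nl, a GTPase-activating protein named for its resemblance to part of another gene, is no deubiquitinase.

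The methyltransferase acts at short motifs, of which GGAC is a frequent form, and the muscle table lists where GGAC occurs within a peak. Rnf26, a ligase of the endoplasmic reticulum membrane, carried the second highest member peak and 19 such sites, and 1 of them could be read in the sequence used here. The stretch lies at chr9:44113116-44113145 on the minus strand of GRCm38.p6, in the RefSeq promoter of Rnf26, and is printed 5′ to 3′ with the GGAC site in capitals.
Rnf26: gccttccaagccgGGACgccgttcccttct
The site is listed at position 44113130, 79 bases before the RefSeq start of Rnf26, and the peak itself begins upstream of the annotated start of the gene, at -406 bp. Over the whole muscle table, 149 listed sites fell inside a RefSeq promoter window, and 134 of them (89.9%) read GGAC on the strand of the gene. A promoter window covered 250 bases before and 50 after a gene's start. GGAC occurred anywhere on the gene's strand in 65.6% of all 32851 windows, and on either strand in 87.7%. These shares count whole windows and not listed positions, so they are no background for the 89.9%, which checks positions only. A match in 1 window is a description and does not show a site of methylation.

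Members were listed in both tables at a higher share than protein-coding genes in general. Of 284 annotated protein-coding genes with such symbols, 78 (27.5%) had a muscle peak, beside 16.9% of all 21900 protein-coding genes. In C2C12, 80 of the 284 (28.2%) had a peak, beside 17.6% of all protein-coding genes, and a further member, Rnf219, was listed under a symbol that the annotation does not hold. A gene has to be expressed in the libraries to be listed, and expression was not measured in these files, so its part in these shares was not tested. The tables also shared members more often than other genes. Of the muscle members, 59.0% were in the C2C12 list, beside 39.1% of all muscle genes, and of the C2C12 members, 56.8% were in the muscle table, beside 39.2% of all C2C12 genes. The sets are not quite alike, since all muscle members are protein-coding. The 3983 muscle genes also include noncoding genes and genes not matched to RefSeq.

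The families differed in the share of their annotated genes that was listed. Over all protein-coding genes, this share was 16.9% in muscle and 17.6% in C2C12. Of 68 annotated Trim genes, 21 were listed in muscle (30.9%) and 11 in C2C12 (16.2%, near the share of all genes). Trim3 was the 1 Trim gene listed in C2C12 alone, against 11 listed in muscle alone. Usp genes numbered 18 in muscle (32.1%) and 21 in C2C12 (37.5%) of 56 annotated, with 13 in both. Of 82 annotated Rnf genes, 23 were listed in muscle (28.0%). In C2C12, Rnf genes numbered 28, or 32.9% of those annotated without Rnf219, and 12 were in both. Of 36 Fbxo genes, 9 were listed in muscle (25.0%) and 13 in C2C12 (36.1%), with 6 in both. Of 18 Fbxl genes, 4 were listed in muscle (22.2%) and 5 in C2C12 (27.8%). All 4 Fbxl genes of the muscle table were also in the C2C12 list. Fbxw genes were the fewest beside their annotated number, with 3 of 24 in each table (12.5%, below the share of all genes) and 1, Fbxw2, in both. Over all genes, 39.1% of those in muscle were also in the C2C12 list, and the counts in both are small.

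**Figure D1:**
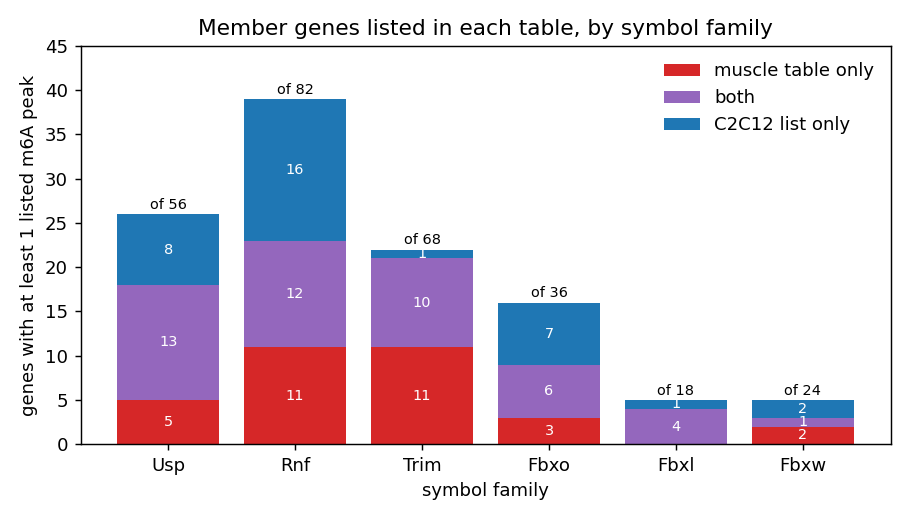
Number of member genes with at least 1 listed m6A peak in each symbol family, divided into genes listed in the muscle table only, in both tables and in the C2C12 list only. Above each bar stands the number of annotated protein-coding genes of the family. The Trim bar holds 11 genes of muscle alone and 1 of C2C12 alone, whereas the Rnf bar holds 11 and 16.

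The strength of the muscle peaks in members was close to that of all genes. Taking each gene by its strongest peak, the median fold enrichment was 19.9 over the 78 members (quartiles 10.7 and 51.3) and 19.3 over all genes (quartiles 6.84 and 75.8). Of the 99 member peaks, 54 (54.5%) were at or above the median of all peaks, 12.9, beside 50.1% of all peaks. Members ran from 1.72 in Rnf10 to 634 in Fbxl14, while all peaks ran from 1.06 to 3860. The family medians lay between 17.1 in Rnf and 33.0 in Fbxw, the latter over 3 genes, and the range within each family was far wider than the distance between the medians. A p-value of 0 was listed for 23 of the 99 member peaks (23.2%) and for 17.2% of all peaks, and the highest p among members was 0.0017, in Fbxw8.

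**Figure D2:**
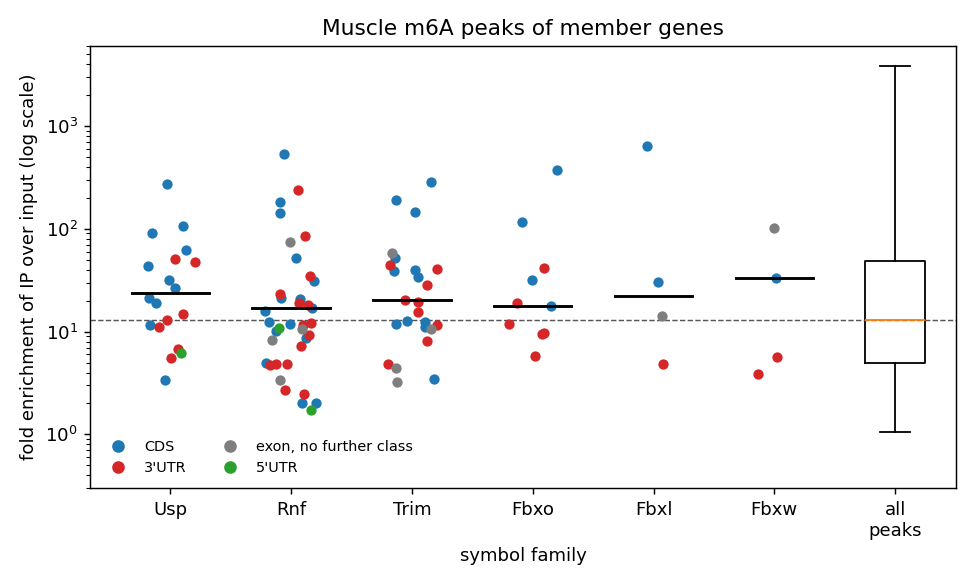
Fold enrichment of IP over input (log scale) of the 99 member peaks in muscle, by symbol family, with 1 point per peak coloured by annotation class. Black lines mark the median over genes, each by its strongest peak, the box gives the quartiles and the whiskers the range of all 5412 peaks, and the dashed line their median of 12.9. The points of each family spread far wider than the family medians, which lie between 17.1 and 33.0.

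Among the deubiquitinases, Usp42 had the strongest muscle peak, at a fold enrichment of 273 in the coding sequence (CDS), with 20 GGAC sites over 1561 bp, the most of any member peak. Usp53 followed with 91.0 and Usp35 with 61.9, both in the CDS. Usp6nl, which is no deubiquitinase, had 107. In the 3'UTR, Usp24 had 50.4 and Usp30, the deubiquitinase of the mitochondrial outer membrane that opposes mitophagy, had 47.1. The peak of Usp47 in the CDS had 31.6 with 11 sites, and that of Usp36, a nucleolar deubiquitinase, had 26.4 over 4 exon blocks. Usp8, which acts in endosomal sorting, had a single peak of 6.20 in the 5'UTR. The lowest Usp gene by its strongest peak was Usp18, the protease that removes the ubiquitin-like ISG15, with 5.50 in the 3'UTR. Of the 19 Usp peaks, 13 (68.4%) were at or above the median of all peaks and 11 lay in the CDS. GGAC sites stood at 7.94 per 1000 bp in Usp peaks, that of Usp6nl included, against 5.39 in all member peaks and 4.63 in all peaks. This was not particular to Usp, since Fbxw peaks had 8.17 and Fbxl peaks 7.15, over 4 peaks each. Fbxo, Trim and Rnf peaks had 4.75, 4.65 and 4.38.

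Rnf genes held both some of the strongest and the weakest member peaks. The peak of Rnf26 covered 2656 bp at chr9:44110802-44113457, with a fold enrichment of 539, and is annotated to the CDS. Rnf103, another ligase of the endoplasmic reticulum membrane, had 238 in a 3'UTR peak of 1524 bp, the strongest 3'UTR peak among members. Rnf111 (Arkadia), which degrades inhibitors of TGF-beta signalling, had 183 in the CDS, and Rnf146, which recognises poly(ADP-ribose) and acts on axin in the Wnt pathway, had 142 in the CDS. Rnf215 had 85.5 in the 3'UTR and Rnf139 73.8 in a peak classed as exon. At the other end, Rnf10 had 1.72 in the 5'UTR, Rnf216 had 2.00 in the CDS and Rnf114 had 2.47 in the 3'UTR. Of the 37 Rnf peaks, 16 (43.2%) reached the median of all peaks, the lowest share of the 6 families.

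Among Trim genes, Trim56, which takes part in antiviral responses, had the strongest peak with 287 in the CDS. Trim45 had 190 in a CDS peak of 601 bp with 5 GGAC sites, a short peak for such a value, and was not listed in C2C12. Trim13, a ligase anchored in the endoplasmic reticulum membrane, had 144 in a CDS peak of 990 bp with 1 GGAC site, and was likewise not listed in C2C12. Trim7, a binding partner of glycogenin, had 57.7 and Trim32 had 51.6. The lowest Trim gene was Trim33, a ligase of the SMAD pathway, with 3.23 over 3 exon blocks that together hold 331 bp. Next came Trim26, with 4.42 in a peak classed as exon, and Trim44, with 4.88 in the 3'UTR.

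F-box genes were led by Fbxl14, a receptor that targets the transcription factor Snail, whose single CDS peak had the highest fold enrichment of all members. That peak covered 1736 bp at chr6:119479788-119481523 with 13 GGAC sites and ranked 79 among the 5412 peaks. Fbxl5, the iron-sensing receptor that controls the iron regulatory protein Ireb2, had 30.1. Among Fbxo genes, Fbxo46 had 371 over 2095 bp with 16 sites and Fbxo28 had 117, both in the CDS. Fbxo11 had 41.3 in the 3'UTR and Fbxo33 31.8 in the CDS. Fbxw2 had 101 with 8 sites over 690 bp, Fbxw5 had 33.0 and Fbxw8 had 5.60. The top peaks of Fbxl14, Fbxo46, Fbxw2, Rnf26, Rnf103, Trim56 and Usp42 are thus spread over families with different roles in the pathway.

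For a known role in muscle or in Notch or m6A biology, 22 genes with symbols of these families were looked up. Of these, 8 were listed in the muscle table, 6 in C2C12, 2 in both and 10 in neither. Over all annotated genes of the families, 27.5% were listed in muscle and 28.2% in C2C12. Over all protein-coding genes, these shares were 16.9% and 17.6%. The counts over the 22 chosen genes are a description only. Fbxo32 (atrogin-1), a ligase of muscle atrophy, was 1 of the 2 in both. Its muscle peak lay in the 3'UTR, over 690 bp with 3 GGAC sites, and had a fold enrichment of 11.9, just under the median of all peaks. The C2C12 peak of Fbxo32 was also in the 3'UTR, 383 bp long, centred 33653 bp from the transcription start site (TSS), and the muscle peak spanned 34133 to 34822 bp from the TSS. Usp9x, a large X-linked deubiquitinase, was the other, with muscle peaks of 11.5 and 3.42 in the CDS and 1 C2C12 peak in a coding exon.

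Of those in muscle alone, Trim32, mutated in a limb-girdle muscular dystrophy, had CDS peaks of 51.6 and 12.3. Usp25 had 43.6 in the CDS, and Fbxo40, a muscle F-box protein that targets the insulin receptor substrate Irs1, had 17.6 in a CDS peak of 541 bp. Rnf40, which with Rnf20 monoubiquitinates histone H2B, had 12.3 in the CDS and 4.76 in the 3'UTR, whereas Rnf20 was in neither table. Fbxw8, with 5.60 and 3.90 in the 3'UTR, and Trim33, with 3.23, were the weakest of the 6 listed in muscle alone. Fbxw7, the receptor for Notch, Myc and cyclin E, and Usp10 had a coding peak in C2C12 alone, of 341 and 632 bp. Fbxw11 and Fbxo21 had a 3'UTR peak in C2C12 alone, of 241 and 217 bp. Trim63, Trim54 and Trim55, the MuRF proteins of the sarcomere, Trim72, which acts in membrane repair, and Fbxl21, Rnf5, Trim28, Usp12 and Usp19 were listed in neither table. Another receptor known from muscle atrophy, Fbxo30, which lies outside those 22 and was chosen after its values were seen, had a muscle peak of 9.60 in the 3'UTR and C2C12 peaks in a coding exon and an intron.

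Member peaks lay in the CDS more often than peaks in general. In muscle, 46 of 99 (46.5%) were annotated to the CDS, beside 31.9% of all peaks, and 40 (40.4%) to the 3'UTR, beside 48.0%. The class exon, with no further annotation, held 10 member peaks (10.1%, beside 14.9%), and the 5'UTR held 3, in Rnf10, Rnf111 and Usp8. In C2C12, 73 of 104 member peaks (70.2%) were in coding exons, beside 52.6% of all peaks, and 20 (19.2%) in the 3'UTR, beside 25.9%. Introns held 8 C2C12 member peaks (7.69%, beside 12.4%), 3 of them in Fbxl13. The remaining C2C12 peaks were 1 in the 5'UTR of Trim8, 1 upstream of Fbxo8 and 1 downstream of Usp30. Since both tables were annotated separately and by different class names, the shares are read within each table.

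**Figure D3:**
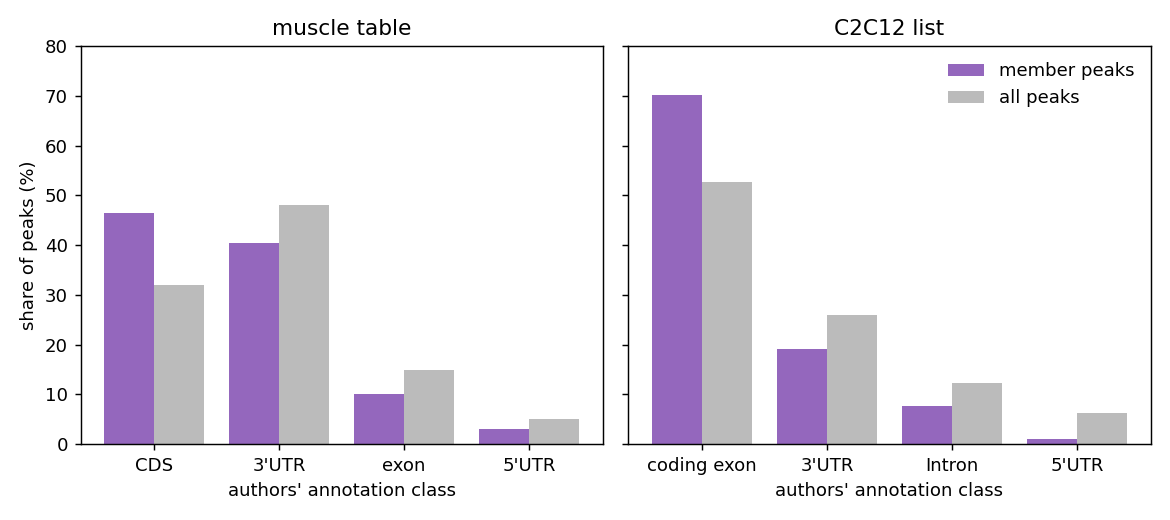
Share of peaks (%) by annotation class in the muscle table (left) and the C2C12 list (right), for member peaks and for all peaks. Member peaks are in the coding sequence at 46.5% in muscle and 70.2% in C2C12, against 31.9% and 52.6% of all peaks. Classes with under 2% of all peaks are not drawn.

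CDS peaks of members were stronger, longer and more often held a GGAC site than their 3'UTR peaks, as in the whole table. Their median fold enrichment was 30.6 in the CDS and 11.8 in the 3'UTR, beside 26.6 and 9.94 for all peaks. The median exonic length was 600.5 bp and 286 bp. A GGAC site was listed in 89.1% of CDS and 57.5% of 3'UTR member peaks, beside 84.5% and 62.0% of all peaks in these classes. Over all classes, 73 of the 99 member peaks (73.7%) held a GGAC site, beside 70.6% of all peaks, with 323 sites in total. By family the share ran from 60.0% of Fbxo peaks to 78.9% of Usp peaks. Member peaks without a site included strong ones, namely Rnf139 with 73.8 over 599 bp and Trim17 with 41.0 over 419 bp. The peak of Trim17 overlapped one of Hist3h2a on the same strand, which had 36.9.

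Fold enrichment went with peak length among members as in the whole table. Spearman's rho between fold enrichment and exonic length was 0.77 over the 99 member peaks and 0.76 over all 5412. These points are peaks of the same libraries, and a longer peak also has more room for GGAC sites. The 33 member peaks under 300 bp had a median fold enrichment of 6.20, the 53 of 300 to under 1000 bp had 21.1, and the 13 of 1000 bp or more had 142. For all peaks these medians were 4.89, 22.5 and 134. A GGAC site was listed in 45.5%, 84.9% and 100% of the member peaks in the 3 length classes, beside 45.2%, 83.9% and 98.6% of all peaks. Peaks of 1000 bp or more made up 13.1% of member peaks and 14.7% of all peaks. The longest member peak, 3300 bp in Rnf213, had only 52.2, and Trim45, at 601 bp, stood above the other members of about its length.

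**Figure D4:**
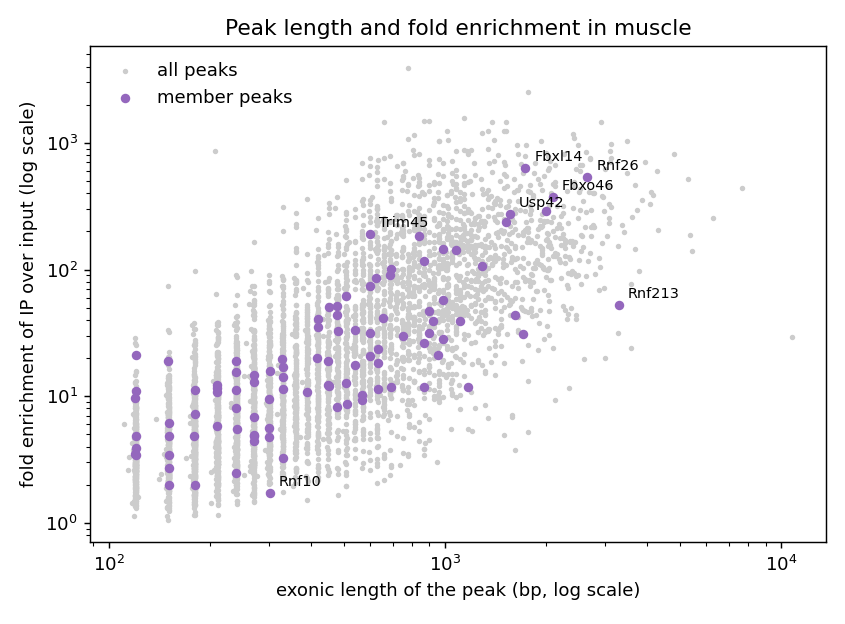
Fold enrichment of IP over input against the exonic length of the peak in bp, both on log scales, for member peaks (purple) and all muscle peaks (grey). Member peaks follow the cloud of all peaks, with Fbxl14 at 634, Rnf26 at 539, Fbxo46 at 371 and Usp42 at 273 at its upper end and Rnf10 at 1.72 at its lower edge.

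Most members had a single listed muscle peak. A second peak was listed in 14 of 78 (17.9%), beside 25.0% of all muscle genes. Since only muscle peaks that passed the differential test are listed, these are not counts of all m6A peaks of a gene. The shares are therefore read within each table. In C2C12, 20 of 81 members (24.7%) had 2 or more, beside 25.8% of all C2C12 genes. Rnf111 and Rnf213 had the most peaks in muscle, with 5 each. Those of Rnf111 lay in the 5'UTR (10.9), the CDS (183, 15.7 and 2.00) and the 3'UTR (23.4), so that peaks within 1 gene differed by up to 91.5 times. Rnf213, a very large ligase with an ATPase domain, had CDS peaks of 52.2, 11.9, 8.63 and 4.98 and a 3'UTR peak of 18.3. Rnf44 had 3 peaks, 35.1 and 2.70 in the 3'UTR and 31.0 over 8 exon blocks of the CDS.

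Across the 14 genes, the median ratio of the strongest to the weakest peak was 3.78. The strongest peak was in the CDS in 8 of them and in the 3'UTR in 5. This ratio and these counts were not made over all genes with several peaks. CDS peaks were stronger than 3'UTR peaks in the whole table too, with medians of 26.6 and 9.94, so the counts are not particular to members. Trim56 had 287 in the CDS and 44.1 in the 3'UTR, Fbxo28 had 117 and 18.9, and Rnf146 had 142 and 9.30. In Trim16 both peaks lay in the 3'UTR, with 19.6 and 15.6. Some of these peaks coincided with a peak of a neighbouring gene. Both Rnf146 peaks overlapped peaks of Echdc1 on the opposite strand, with 122 and 8.4. Peaks of Rnf214, Rnf26, Usp34 and Usp38 also overlapped a peak of a gene on the other strand. Whether peaks were called with regard to strand is not given in the sources used here, so reads of the overlapping genes cannot be told apart.

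In C2C12, 3 peaks were listed for Fbxl13, all in introns, for Rnf19a, all in coding exons, and for Usp36, with 2 coding peaks and 1 in the 3'UTR. Member peaks in C2C12 had a median length of 302 bp and a range of 199 to 942 bp, and the median of all peaks was 285 bp. The longest were in Trim26 (942 bp), Fbxo46 (892 bp), Usp42 (732 bp), Rnf146 (722 bp) and Rnf26 (691 bp), all in coding exons. Of these 5, Fbxo46, Usp42, Rnf146 and Rnf26 had muscle peaks of 142 or more, whereas Trim26 had 4.42. The members listed in C2C12 alone included Usp1, which deubiquitinates FANCD2 and PCNA, Usp5, which takes apart unanchored ubiquitin chains, and Rnf8, a ligase of the DNA damage response. Rnf168, which acts after Rnf8 in that response, was listed in both, with muscle 3'UTR peaks of 18.9 and 7.20.

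Members listed in both tables had stronger muscle peaks than members of muscle alone, as all shared genes had. The median of the strongest peaks was 28.2 over the 46 shared members and 12.8 over the 32 of muscle alone, beside 39.3 and 13.5 for all genes. A coding peak was listed in both tables for 23 of the 46 (50.0%), beside 36.9% of all 1558 shared genes. A 3'UTR peak was listed in both for 5 (10.9%, beside 24.5%), namely Fbxo11, Fbxo32, Rnf121, Trim47 and Usp24. A 3'UTR peak in muscle met a coding but no 3'UTR peak in C2C12 in 13 (28.3%, beside 22.2%).

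Positions were then compared by distance from the TSS, because the C2C12 list is on another genome build. A muscle and a C2C12 peak overlapped by this measure in 22 of the 46 shared members (47.8%), beside 54.9% of all 1551 shared genes with a distance. With a gap of up to 1000 bp allowed, the share was 60.9% of members and 65.4% of all. The 22 genes had a median fold enrichment of 82.4 (18.9 to 634) in muscle, and the other 24 had 11.5 (2.00 to 273). Any shared base counted as overlap, so a longer muscle peak overlaps more readily, and fold enrichment went with length (rho 0.77 over member peaks). The part of peak length in this difference was not tested, and the same split was not made over all shared genes. Fbxl14, Fbxo46, Rnf26, Trim56, Rnf103, Rnf111, Rnf146, Fbxo28, Usp6nl and Fbxw2, all at 101 or more, were among the 22. In Fbxl14 the muscle peak spanned 120 to 1855 bp from the TSS and the C2C12 peak was centred at 1111 bp. In Rnf103 a muscle peak classed as 3'UTR and a C2C12 peak classed as coding overlapped, at 15036 to 16559 bp and 15967 bp.

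Usp42 was the strongest muscle gene without an overlap, with its muscle peak at 43631 to 45955 bp and its C2C12 peak at 16838 bp. Muscle distances were counted from the outermost RefSeq start of the gene and C2C12 distances from the start of the listed transcript, so a gene with several starts can appear shifted. Trim44 had muscle peaks in its CDS and 3'UTR, at 43350 bp and beyond, and a C2C12 peak in a coding exon at 565 bp. Rnf19b, with its muscle peak at 366 to 695 bp, had its C2C12 peak at 25634 bp, and Usp8 had 127 to 277 bp in muscle and 35051 bp in C2C12.

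**Figure D5:**
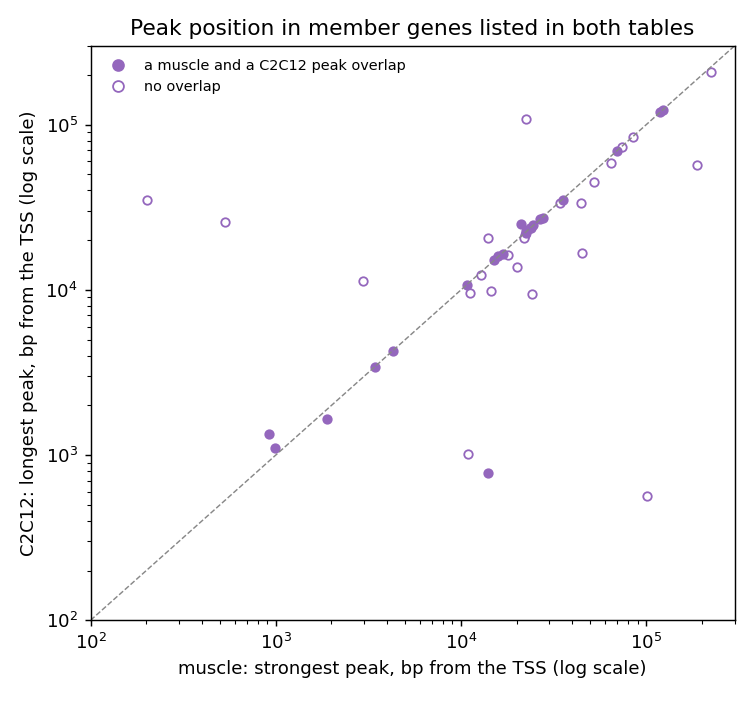
Distance from the TSS in bp (log scales) of the strongest muscle peak and of the longest C2C12 peak for the member genes listed in both tables. Filled points are the 22 genes in which any muscle and any C2C12 peak overlap, open points the other 24, and the dashed line marks equal distance. Most filled points lie on the line, and a filled point off it is a gene such as Trim8 whose overlapping C2C12 peak is not its longest.

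Among the members listed in muscle but not in C2C12 were several that interferon induces, and these were looked at as a list drawn up after their values were seen. Of 15 such members, 8 (53.3%) were listed in muscle and 1, Trim56, in C2C12 (6.67%). Of all protein-coding genes, 16.9% were listed in muscle and 17.6% in C2C12, but since the list was drawn from the values, these counts are a description only. Their strongest muscle peaks were 287 in Trim56, 52.2 in Rnf213, 28.3 in Trim30d, 12.6 in Trim25, which activates the RNA sensor RIG-I, 11.9 in Trim30a, 11.7 in Trim12c, 11.2 in Trim34a and 5.50 in Usp18. Their median was 12.2, below the 19.9 of all members. Trim30a, Trim30d, Trim12c and Trim34a have near-identical relatives, between which reads could be divided, so that their values are uncertain. Of the 4 leukocyte markers, Ptprc was listed in muscle, with 3.28, the other 3 were not, and none was listed in C2C12, and the part of infiltrating cells in this list was not tested.

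For other parts of the ubiquitin pathway, the shares are again set beside the 16.9% of all protein-coding genes in muscle and the 17.6% in C2C12. Of 43 E1 and E2 enzymes, 8 were in muscle (18.6%, near the share of all genes) and 13 in C2C12 (30.2%), with 5 in both, and the median of their strongest muscle peaks was 47.1. They ran from 1.70 in Ube2k to 715 in Ube2o, above every member. Of 39 HECT-type and other ligases and scaffolds, 18 were in muscle (46.2%) and 13 in C2C12 (33.3%), with a median of 13.2. Among these were Xiap, an inhibitor of caspases, with 257, Cul7 with 76.3, Mdm2, the ligase of p53, with 50.0 and Nedd4 with 2.30. Cul1, the cullin on which the F-box proteins assemble, was listed in C2C12 alone. Of 29 further genes, deubiquitinases and their relatives with symbols other than Usp, 11 were in muscle (37.9%) and 10 in C2C12 (34.5%). Their median was 41.5, led by Vcpip1 with 218 and Tnfaip3 (A20), a brake on NF-kappaB signalling, with 199. Of 40 proteasome subunits, 8 were in muscle (20.0%) and 14 in C2C12 (35.0%). Psmd7, listed in C2C12, is counted both here and among the 29 genes before. The median of the 8 muscle genes was 4.57, beside 19.9 for members and 19.3 for all genes, with Psmd3 at 33.3 above both and Psmd10 at 19.2.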

How the data were processed

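m6A MeRIP-Seq was analysed for muscle (4 libraries) and C2C12 cells, with groups taken from the labels. The submitters' processing notes name TopHat, MACS2 and mm10, with no version or setting, and other steps are not given in the sources used here. For muscle, the authors deposited the fold enrichment of each peak, a ratio of IP over input, and its p-value, with 1 value per peak and none per library. For C2C12 they deposited positions and annotation. The muscle table also holds the authors' own comparison of the genotypes (log2 fold, p-value and FDR), which was not used. Columns of single samples left out numbered 0, and depth is unknown.

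Muscle positions fit GRCm38, since 99 of 99 member peaks lie within or at the edge of their RefSeq gene, against 9 of 104 in C2C12. The peak of Rnf26, counted among the 99, begins before its gene, at -406 bp. For this reason of build no C2C12 coordinates are given. RefSeq genes were matched for 3811 of 3983 muscle genes, 3967 of 3970 C2C12 genes and 113 of 113 members. Where a gene had several peaks, the one of highest fold enrichment stood for it. No pseudocount and no filter were applied. Peak sets were compared by distance from the TSS, with any overlap counted, and this comparison, the list of interferon-induced genes and the cell markers were chosen after the data were seen.

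The members, lists and tests were chosen with earlier results of these data known. Named genes were 22 with a role in muscle or in Notch or m6A biology, the 2 strongest of each family and those with 3 or more peaks in a table, and others are named for their values. A matching gene (1) is not reported here. Python 3.11.15, pandas 2.3.3, numpy 2.4.6, scipy 1.17.1 and matplotlib 3.10.9 were used, and the calculations were tested on simulated data. Alternatives covered the choice of peak, the filters on fold enrichment, p and length, the annotation classes and the matching of symbols.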

Additional observations from a re-analysis of the deposited data

How the results depend on the processing

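Of 24 alternatives to 11 values, 4 moved the value beyond a working limit, which was 1.5 times for a count and otherwise a 95% interval (Wilson for a share, order statistics for a median). These intervals take peaks or genes as independent and are no replicate error, so the other 20 are not shown to be stable. The share of member peaks above a high fold enrichment was 21.2% at the upper quartile of all peaks (48.3), beside 25.0% of all peaks and in place of 54.5% at the median. The share with a GGAC site was 87.0% in the stronger peaks, those from the median of 12.9 upward (85.8% of all such peaks), and 82.9% among peaks of 200 bp or longer (79.1% of all). Counting only genes with such a stronger peak left 47 members in muscle instead of 78. The same filter left 31 members in both tables instead of 46, just within the limit of 1.5 times. The count of 47 and the share at the upper quartile measure another quantity, so their moves follow from the definition and do not show dependence on processing. No paired analysis was possible because neither genotype has a second library and no column of the tables belongs to a single library. Without read counts, no limit of detection can be given, and with 1 library of each kind per genotype no value has a replicate check. The median fold enrichment of member genes, 19.9 as reported, ran from 19.1 to 20.8 over the alternatives that keep genes as the unit. With every peak on its own, which is another quantity, it was 15.7.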
